A study of Mus musculus with 8 samples.

Results

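Heme is made from glycine and succinyl-CoA by a chain of enzymes that begins and ends in the mitochondrion and passes through the cytosol in between. Liver is, next to the bone marrow, a main site of the pathway, because hepatocytes build heme into cytochrome P450 enzymes, catalase and other heme proteins. Its first step, aminolevulinate synthase, sets the rate and comes in a form used by all tissues and a form made in red blood cell precursors. The genes described here are 8 genes of this pathway, Alas1, Alas2, Alad, Uros, Urod, Cpox, Ppox and Fech, chosen by name. All 8 were measured, by 11 of the 33653 array features that carry a single gene symbol, among 19087 genes in all.

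Expression was compared in liver RNA of 9-month-old C57Bl/6 mice on 8 two-colour arrays. Of these, 4 held RNA of untreated mice with a mutant Wrn protein and 4 held RNA of Wrn mutants given vitamin C, each against RNA of wild type mice. Wrn is a DNA helicase of the RecQ family. The sources used here do not give the kind of mutation, the animals' sex, or how much vitamin C was given and for how long. On replicates 1 and 2 of each group the mutant RNA was labelled with Cy5, and on replicates 3 and 4, the dye-swapped arrays, with Cy3. Arrays that share a replicate number also share the number of the wild type mouse, so both groups were set against wild type RNA of the same number.

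The deposited values are log ratios, read here as log2, with array medians between -0.0053 and 0.0049. They are ratios without intensities, so they give no level of any gene and do not allow the tissue to be checked by its marker genes. A value above 0 is read as higher in the mutant, which is the likely direction but not a settled one. It rests on the order of names in the titles of the unswapped arrays and on the study's title, while the array descriptions name wild type first. If it runs the other way, every sign below changes. Whether the swapped arrays had already been turned to the same direction is also not stated. Their titles name wild type first, so by the title rule used above they would still have to be turned. As deposited, swapped and unswapped arrays correlated over all genes at Pearson r between -0.22 and 0.081. With both groups averaged, 2 genes passed as deposited and 309 when turned. The deposited values also differ in form, with a median of 15 significant digits on each unswapped and 6 on each swapped array. Which reading holds was not tested. The swapped arrays are taken as turned all the same. Values for the other reading, in which they still have to be turned by the dyes, stand beside the results. Both readings give the same values on the 4 unswapped arrays.

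No heme synthesis gene passed the test in any comparison at an adjusted p of 0.05 (limma, Benjamini-Hochberg over all 19087 genes). The lowest adjusted p of a member was 0.365 for untreated mutants, 0.636 for treated mutants and 0.974 between the treated and untreated mutants. At an unadjusted p under 0.05, 2 of the 8 members stood apart in untreated mutants, where 7.79% of all genes did (3.14% above 0 and 4.65% below). In treated mutants 3 of 8 did, where 7.09% of all genes did (3.73% above and 3.37% below). Between treated and untreated mutants 0 of 8 did, where 4.28% of all genes did by the same test (2.37% above and 1.91% below). With both groups averaged, 4 of 8 did, 2 above 0 and 2 below, where 9.84% of all genes did (4.54% above and 5.3% below). No gene of the whole array passed the adjusted threshold in the first 3 of these comparisons, so the background there was 0.0%, and 0.0105% passed with both groups averaged.

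With the swapped arrays turned by the dyes, again no member passed. The genes passing were then 0.0472% of all in untreated mutants, 0.0524% in treated mutants, 0.0% between the groups and 1.62% with both groups averaged. At an unadjusted p under 0.05 the members counted 2, 1, 1 and 4 in these comparisons, where 10.1%, 9.15%, 3.0% and 14.9% of all genes did.

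Single signs were counted as well. As deposited, Alas1 and Ppox had 1 sign on all 4 untreated arrays (12.9% of all genes) and Urod on all 4 treated arrays (13.2%). On the unswapped arrays Alas1, Uros and Ppox did (23.5%), and on the swapped arrays Uros, Urod and Fech did (20.5%). The members did not lie on one side. In each comparison with wild type 4 were above 0 and 4 below, with a median of -0.0057 in untreated and -0.0041 in treated mutants, against -0.012 and 0.0044 over all genes.

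**Figure D1:**
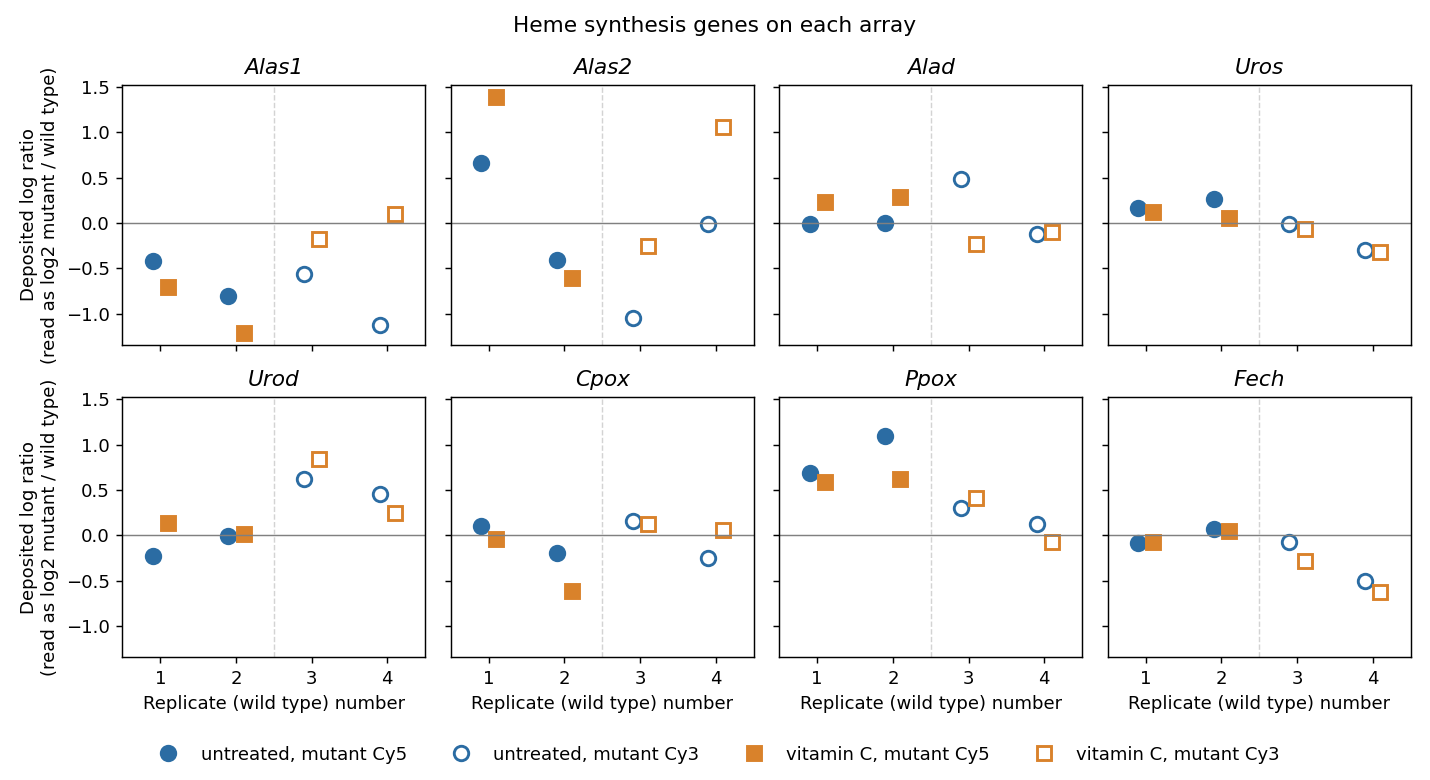
Deposited log ratio (read as log2 of mutant over wild type) of each heme synthesis gene against the replicate number, with circles for untreated and squares for vitamin C treated mutants. Filled symbols are arrays with the mutant in Cy5 and open symbols the dye-swapped arrays. Alas1 lies below 0 on 7 of 8 arrays and Ppox above 0 on 7 of 8, while Alas2 spreads from -1.04 to 1.39.

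Alas1 encodes the aminolevulinate synthase of all tissues, which is held down by heme itself and induced by drugs and by fasting in liver. On the untreated arrays 1 to 4 its log2 ratio was -0.42, -0.80, -0.56 and -1.13. On the treated arrays it was -0.70, -1.21, -0.18 and 0.09. All 4 untreated arrays and 3 of the 4 treated arrays were thus below 0, and the groups overlapped. The mean ratio was -0.73 ± 0.31 (SD, n = 4) in untreated mutants, which is 1.66-fold lower than wild type, and -0.50 ± 0.58 (SD, n = 4), or 1.41-fold lower, in treated mutants. In the fit these means had a standard error of 0.19, with an unadjusted p of 0.00355 and an adjusted p of 0.456 in untreated mutants. The values in treated mutants were an unadjusted p of 0.0254 and an adjusted p of 0.687. With both groups averaged, Alas1 stood at -0.61 ± 0.13 (SE) and ranked 113 among all genes by p (adjusted p = 0.194). That fit treats the arrays as independent, though same-numbered arrays share a wild type number. With that number as a random replicate block in limma, the adjusted p of Alas1 was 0.305.

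The reading of the swapped arrays decides part of this. On the unswapped arrays, which do not depend on it, Alas1 lay between -1.21 and -0.42, below 0 on 4 of 4. With the swapped arrays turned by the dyes, Alas1 stood at -0.46 ± 0.14 in treated mutants (SE, limma, unadjusted p = 0.0104, adjusted p = 0.377) but at 0.12 ± 0.14 in untreated mutants (adjusted p = 0.821). The difference between treated and untreated mutants also changed sign with the reading. It was 0.23 ± 0.27 as deposited, with a 95% interval of -0.37 to 0.83, and -0.57 ± 0.20 with the swapped arrays turned (unadjusted p = 0.0190, adjusted p = 0.9997). Within numbers 1 and 2, treated minus untreated was -0.28 and -0.41, and within numbers 3 and 4 it was 0.38 and 1.22 as deposited.

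Alas1 was measured by 2 features, which gave the same sign on 7 of 8 arrays. One feature stood at -0.73 in untreated and -0.58 in treated mutants, and the other at -0.72 and -0.42. The exception was treated replicate 4, where they read -0.10 and 0.28.

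**Figure D2:**
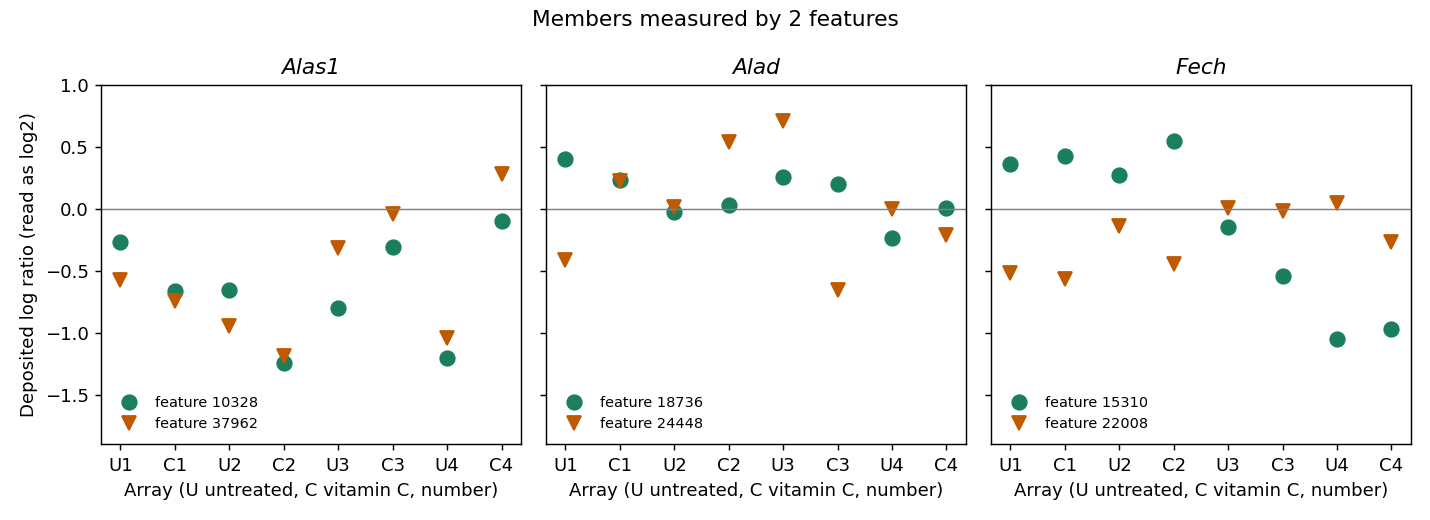
Deposited log ratio (read as log2) of each of the 2 features of Alas1, Alad and Fech on the 8 arrays, where U is untreated, C is vitamin C treated and the digit is the replicate number. The features of Alas1 run close together, with a largest gap of 0.49, while those of Fech have the same sign on 2 of 8 arrays.

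The Alas1 gene lies on mouse chromosome 9. RefSeq lists 2 starts for it. The 250 bases before the outer start are shown because Alas1 was the member furthest below wild type in the deposited values of both groups, with matches to the motifs searched in capitals (GRCm38.p6, chr9:106247955-106248204, minus strand). With the swapped arrays turned it was furthest below in treated mutants but not in untreated ones, where Urod was lowest at -0.33. The only match is CCACCC, a KLF and SP1 type box, on the strand opposite to the one printed, found in 28.1% of all 32851 upstream windows of the table.
Alas1: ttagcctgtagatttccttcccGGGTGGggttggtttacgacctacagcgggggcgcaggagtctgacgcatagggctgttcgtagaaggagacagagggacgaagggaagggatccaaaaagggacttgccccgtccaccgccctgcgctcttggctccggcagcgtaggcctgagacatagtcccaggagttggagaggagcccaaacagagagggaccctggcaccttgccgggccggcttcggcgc
From base 31 to base 38 after this start, and so within the 250 bases before the inner start, GCATGCG is found on both strands in overlapping copies (capitals below). This is the core of the motif of nuclear respiratory factor, a known activator of Alas1, and 3.02% of all upstream windows hold it. It lies within chr9:106247906-106247935.
Alas1 site: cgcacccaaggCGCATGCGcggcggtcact

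Alas2 encodes the aminolevulinate synthase of red blood cell precursors and lies on the X chromosome. On the untreated arrays 1 to 4 its log2 ratio was 0.67, -0.41, -1.04 and -0.01. On the treated arrays it was 1.39, -0.61, -0.25 and 1.06. The spread was the widest of the 8 members, with a mean of -0.20 ± 0.72 (SD, n = 4) in untreated and 0.40 ± 0.98 (SD, n = 4) in treated mutants, and the groups overlapped. Neither mean was distinguishable from 0 in limma (adjusted p = 0.930 and 0.863), nor was the difference of 0.60 ± 0.49 (SE, 95% interval -0.51 to 1.70, adjusted p = 0.974). Leaving out both arrays of number 1 took the treated mean to -0.01, and leaving out those of number 2 took it to 0.92.

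The values of Alas2 varied from number to number, while its difference between groups was not distinguishable from 0 in limma. Averaged over both groups, its values were 1.03 for number 1, -0.51 for number 2, -0.65 for number 3 and 0.53 for number 4. Within numbers 1 to 4, treated minus untreated was 0.72, -0.20, 0.79 and 1.07, above 0 in 3 of 4 numbers. Globin genes mark red blood cells and their precursors. Hba-a1, an alpha globin gene, stood at 0.28, -0.89, -1.76 and -0.03 on the untreated arrays and at 0.77, -0.34, -0.95 and 0.57 on the treated ones. Its sign matched that of Alas2 on 8 of 8 arrays. Hbb-bt, a beta globin gene, ran from -2.25 on untreated replicate 3 to 0.83 on treated replicate 4 and also matched on 8 of 8. Hba-a2 matched on 7 of 8, with treated replicate 2 at 0.18 as the exception. These globin genes are close copies of each other, so their features may bind RNA of more than one of them. Same-numbered arrays share a wild type number, so the 8 arrays are not 8 independent matches. On untreated replicate 4, Alas2 at -0.0086 and Hba-a1 at -0.03 lay close to 0. The share of all genes that match Alas2 in sign as often was not counted.

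The globin genes were higher on the treated than on the untreated array of every number as deposited. The share of all genes with a single sign in every number was not counted. In the fit, 10251 of all 19087 genes lay above 0 between treated and untreated mutants. Treated minus untreated within numbers lay between 0.49 and 0.81 for Hba-a1, between 0.62 and 1.15 for Hba-a2 and between 0.47 and 1.16 for Hbb-bt. The main limma fit does not pair the arrays by number, so its standard errors include the spread between numbers. In it none of these differences passed, at 0.62 ± 0.48, 0.93 ± 0.45 and 0.81 ± 0.53 (SE, adjusted p = 0.974 for each). With the number as a fixed or as a random replicate block, 0 genes of the whole array passed between treated and untreated mutants. Turned by the dyes, the differences of the 3 globin genes stood at -0.09, -0.05 and -0.25, and that of Alas2 at -0.33.

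The 18 measured genes of the erythroid list other than globins had medians between -0.17 and 0.13 on the 8 arrays, with single values from -1.56 to 0.99. Slc4a1, the anion exchanger of the red cell membrane, read 0.99 on untreated replicate 2, where Alas2 was at -0.41, and -1.42 on untreated replicate 3. Klf1, the erythroid transcription factor, lay below 0 on 3 of 4 arrays in each group and stood at -0.48 ± 0.16 in untreated mutants (SE, adjusted p = 0.577), or 0.12 with the swapped arrays turned. Over the whole list of 21 measured genes, 1 had an unadjusted p under 0.05 above 0 and 1 below 0 in untreated mutants, where 3.14% and 4.65% of all genes did. In treated mutants 0 did, where 3.73% and 3.37% of all genes did. In bulk liver, fewer cells of a type and less RNA per cell cannot be told apart, and the part of blood cell RNA in the values of Alas2 was not tested.

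**Figure D3:**
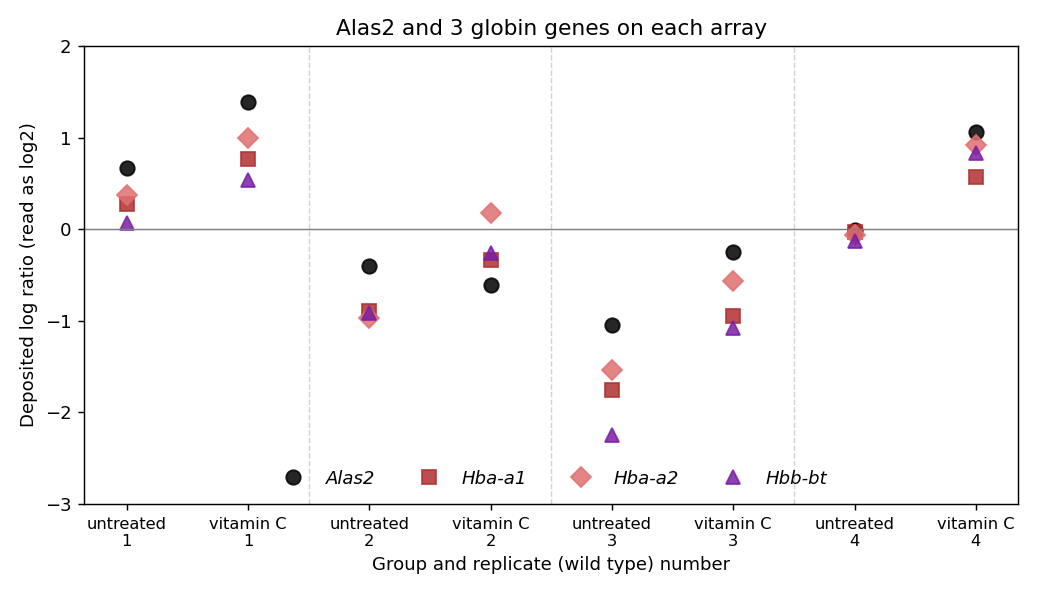
Deposited log ratio (read as log2) of Alas2 and of the globin genes Hba-a1, Hba-a2 and Hbb-bt on each array, ordered by replicate number and then by group. All 4 genes are above 0 on both arrays of number 1 and on treated replicate 4, and below 0 on both arrays of number 3.

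The promoter of Alas2 is shown because erythroid control of the gene is its main known feature (GRCm38.p6, chrX:150547167-150547416, plus strand, the 250 bases before the start). In capitals are AGATAA, the motif of GATA factors, once on the opposite strand as TTATCT, which 9.99% of windows hold. CCACCC occurs 3 times on the opposite strand as GGGTGG, each copy sharing a base with the next. TATAAA occurs once on the opposite strand as TTTATA (12.4% of windows).
Alas2: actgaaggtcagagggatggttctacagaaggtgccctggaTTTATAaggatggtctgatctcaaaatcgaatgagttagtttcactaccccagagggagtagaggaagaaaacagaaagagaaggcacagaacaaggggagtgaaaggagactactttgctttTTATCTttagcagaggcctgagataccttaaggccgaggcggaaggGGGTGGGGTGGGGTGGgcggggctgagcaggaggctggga

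The middle steps of the pathway run in the cytosol. Alad joins aminolevulinate molecules into porphobilinogen, Uros closes the ring to uroporphyrinogen III, and Urod removes carboxyl groups from that ring. Alad stood at 0.09 ± 0.27 (SD, n = 4) in untreated and 0.05 ± 0.25 in treated mutants, with single arrays from -0.23 to 0.48. Its 2 features had the same sign on 4 of 8 arrays. Uros stood at 0.03 ± 0.25 and -0.05 ± 0.20, above 0 on all 4 unswapped arrays and below 0 on all 4 swapped ones. Its dye coefficient was 0.16 ± 0.07 (SE, limma, adjusted p = 0.288). This coefficient is the part of a value that turns with the dye only if the swapped arrays were already turned. In the other reading the same number is the difference from wild type averaged over both groups. The split by dye is the same in both groups, so turning the swapped arrays moves Uros to 0.19 ± 0.10 (SE) in untreated and 0.14 ± 0.10 in treated mutants.

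Urod was -0.22, -0.01, 0.62 and 0.46 on the untreated arrays and 0.14, 0.01, 0.84 and 0.25 on the treated ones. It was above 0 on all 4 treated arrays and on the swapped untreated ones, and the groups overlapped. The fitted mean was 0.21 ± 0.12 in untreated mutants (SE, adjusted p = 0.696). In treated mutants it was 0.31 ± 0.12, or 1.24-fold higher (unadjusted p = 0.0238, adjusted p = 0.685). The size came from the swapped arrays, whose mean was 0.54, while the unswapped arrays had a mean of -0.02. With the swapped arrays turned by the dyes Urod stood at -0.33 ± 0.12 in untreated mutants (adjusted p = 0.375) and -0.24 ± 0.12 in treated ones (adjusted p = 0.593). The direction for Urod therefore changes with the reading.

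The last steps return to the mitochondrion. Cpox makes protoporphyrinogen, Ppox oxidises it to protoporphyrin IX, and Fech inserts iron to form heme. Cpox stood at -0.04 ± 0.21 (SD, n = 4) in untreated and -0.11 ± 0.34 in treated mutants, with a lowest value of -0.61 on treated replicate 2 and the other 7 arrays between -0.25 and 0.16. Without treated replicate 2 its treated mean was 0.04.

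Ppox was 0.69, 1.10, 0.30 and 0.13 on the untreated arrays and 0.59, 0.62, 0.42 and -0.08 on the treated ones. All 4 untreated and 3 of 4 treated arrays were above 0, and the groups overlapped. The mean was 0.56 ± 0.43 (SD, n = 4), or 1.47-fold higher, in untreated mutants and 0.39 ± 0.32 (SD, n = 4), or 1.31-fold higher, in treated mutants. In limma the standard error was 0.12, with an unadjusted p of 0.000922 and an adjusted p of 0.365 in untreated mutants and of 0.00828 and 0.636 in treated ones. Ppox ranked 45 among all genes by p in the first of these comparisons. With both groups averaged it stood at 0.47 ± 0.08 and ranked 37 (adjusted p = 0.128), in a comparison where 2 genes passed (0.0105% of all genes, Mapkapk2 and Plac9a). That fit treats the arrays as independent, though same-numbered arrays share a wild type number. With that number as a random replicate block in limma, the adjusted p of Ppox was 0.191 and 0 genes passed.

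The fitted direction of Ppox was the same under both readings. It lay between 0.59 and 1.10 on the 4 unswapped arrays and between -0.08 and 0.42 on the swapped ones. The unswapped arrays are the same in both readings and had the larger mean (0.75 against 0.19), so turning could not change the overall sign. When turned, the swapped arrays other than treated replicate 4 fall below 0, opposite to the unswapped ones. Turned by the dyes, it stood at 0.34 ± 0.12 (SE, adjusted p = 0.370) in untreated and 0.22 ± 0.12 (adjusted p = 0.637) in treated mutants. Its dye coefficient was 0.28 ± 0.08 (SE, limma, unadjusted p = 0.00753, adjusted p = 0.143), which in the other reading is the difference from wild type averaged over both groups. The difference between treated and untreated mutants was -0.17 ± 0.16, with a 95% interval of -0.54 to 0.20. A single feature measures Ppox, so no other feature checks it.

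The promoter of Ppox is shown because the gene had the smallest p of the members in each comparison with wild type as deposited (GRCm38.p6, chr1:171281187-171281436, minus strand, the 250 bases before the start). Capitals mark CCAAT, the box bound by NF-Y, which is found 4 times, once of these as ATTGG on the opposite strand. At least 1 copy is held by 33.8% of all windows. Among the members with a window, Alad and Urod hold it too.
Ppox: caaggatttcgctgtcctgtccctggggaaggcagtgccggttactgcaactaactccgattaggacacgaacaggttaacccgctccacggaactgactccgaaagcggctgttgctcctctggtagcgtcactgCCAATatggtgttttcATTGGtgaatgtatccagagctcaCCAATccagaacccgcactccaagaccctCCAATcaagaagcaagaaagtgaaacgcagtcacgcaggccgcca

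Fech, the ferrochelatase gene, stood at -0.14 ± 0.25 (SD, n = 4) in untreated and -0.23 ± 0.29 in treated mutants. Its 2 features did not behave alike. One was above 0 on every unswapped array, between 0.27 and 0.54, and below 0 on every swapped array, between -1.05 and -0.15. The other lay between -0.57 and -0.13 on the unswapped arrays and between -0.27 and 0.05 on the swapped ones. In treated mutants the first stood at -0.14 ± 0.16 (SE) and the second at -0.33 ± 0.12 (limma over features, unadjusted p = 0.0176). In untreated mutants the features stood at -0.14 and -0.15. Their disagreement thus lay mainly in the split by dye, which the mean of both does not show. In treated mutants that mean was -0.23 ± 0.11 (adjusted p = 0.730), and with the swapped arrays turned it became 0.22 ± 0.11.

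**Figure D4:**
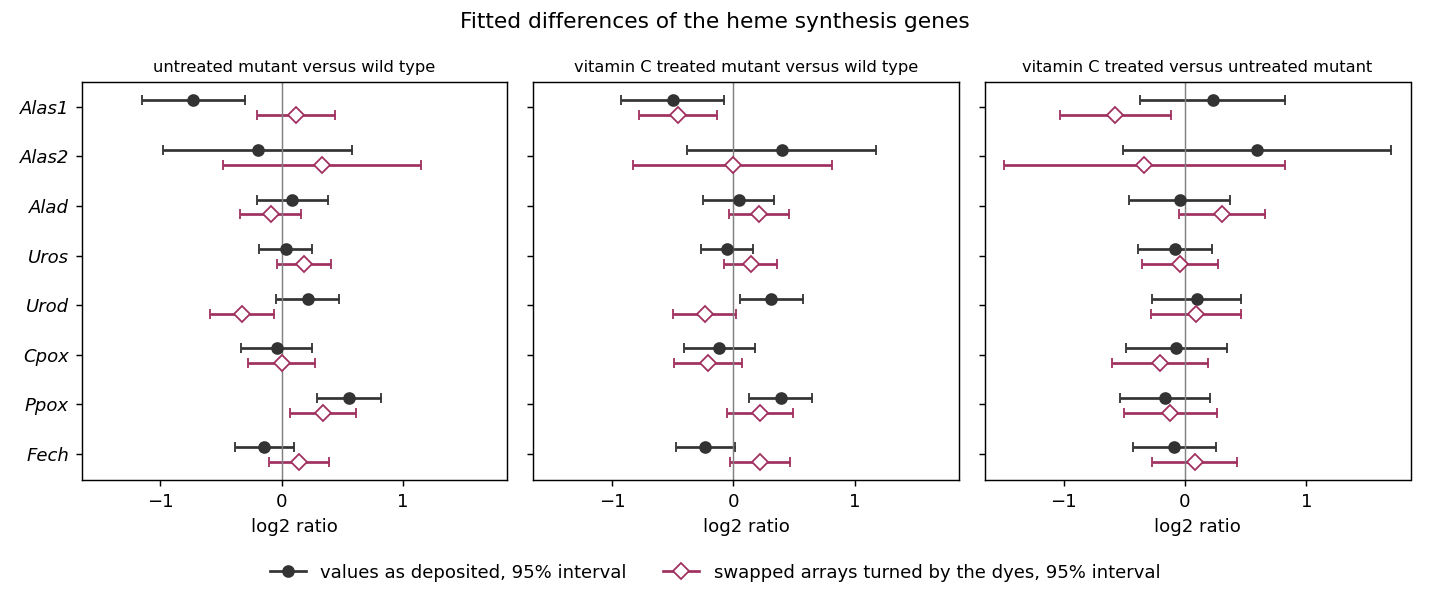
Fitted log2 ratio of each heme synthesis gene with its 95% interval in 3 comparisons, with filled circles for values as deposited and open diamonds for the swapped arrays turned by the dyes. Ppox lies above 0 in both comparisons with wild type under both readings, while Urod and Fech change sides.

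Genes around the pathway were described from lists of other steps of heme use. None of their members passed in any comparison at an adjusted p of 0.05. Of 14 measured carriers of heme, porphyrins and mitochondrial iron, 2 lay above 0 and 12 below in untreated mutants, and 8 above and 6 below in treated ones. Of all genes 53.3% and 48.9% were below 0. Turned by the dyes, 4 of the 14 were below 0 in untreated and 7 in treated mutants. Flvcr2, a heme and choline transporter, was below 0 on all 8 arrays, which 1.57% of all genes matched in having a single sign throughout. It stood at -0.35 ± 0.11 (SE, unadjusted p = 0.0119, adjusted p = 0.558) in untreated and -0.43 ± 0.11 (unadjusted p = 0.00353, adjusted p = 0.610) in treated mutants, and at -0.21 and -0.31 when the swapped arrays were turned. Glrx5, a glutaredoxin of iron-sulfur cluster assembly, stood at 0.39 ± 0.17 in treated mutants (adjusted p = 0.702), or -0.29 when turned.

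Among 8 genes of heme breakdown and scavenging, 2 had an unadjusted p under 0.05 above 0 in treated mutants, where 3.73% of all genes did, and 0 in untreated mutants. Blvrb, which reduces biliverdin and flavins, stood at 0.38 ± 0.10 (SE, adjusted p = 0.610) in treated mutants. On the treated arrays it was between 0.23 and 0.51 and on the untreated ones between -0.26 and 0.11, so the groups did not overlap, as for 2.24% of all genes. The difference between treated and untreated mutants was 0.45 ± 0.14 (unadjusted p = 0.0100, adjusted p = 0.974). Cd163, the macrophage receptor for haptoglobin-bound hemoglobin, stood at 1.20 ± 0.17 in treated mutants (adjusted p = 0.363) and the difference from untreated ones was 0.86 ± 0.24 (adjusted p = 0.974). With the swapped arrays turned, the treated means of Blvrb and Cd163 were -0.13 and -0.63. Their differences between treated and untreated mutants were then -0.14 and -0.17. Hmox1, heme oxygenase, read -3.38 and -2.97 on the arrays of number 3 and 1.06 and 2.54 on those of number 4. The median of 9 Kupffer cell and macrophage markers, which take up dying red cells, was -1.87 and -1.45 on number 3 and 0.35 and 1.95 on number 4. On numbers 1 and 2 this median lay between 1.00 and 1.28, while Hmox1 lay between -0.0010 and 0.49. Cd163 stood at 1.00 and 1.98 on number 3, opposite in sign to the median. The part of these cells in the values of Hmox1, Cd163 and Blvrb was not tested.

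Of 12 regulators of Alas1 and of heme balance, Ppargc1a, the coactivator that raises Alas1 in fasting, lay below 0 on 7 of 8 arrays. It stood at -0.35 ± 0.13 (SE, unadjusted p = 0.0273, adjusted p = 0.608) in untreated and -0.42 ± 0.13 (unadjusted p = 0.0106, adjusted p = 0.642) in treated mutants, where turning the swapped arrays gave 0.15. Nr1i2, the drug receptor PXR, stood at 0.34 ± 0.11 in treated mutants (adjusted p = 0.637), or -0.28 when turned. Nr1d1, the heme-binding clock repressor REV-ERB alpha, stood at -0.98 ± 0.37 there (adjusted p = 0.687), or 0.17 when turned. Nr0b2, the repressor SHP, stood at 2.02 ± 0.85 in untreated mutants (adjusted p = 0.627), of which untreated replicate 1 at 6.90 was the main part. Without that array the value was 0.49.

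Of 15 genes of heme-containing and heme-linked enzymes, 12 lay below 0 in untreated and 10 in treated mutants, as deposited. This lean came from the swapped arrays, where the list's median lay between -0.86 and -0.29, while on the unswapped arrays it lay between 0.02 and 0.19. It was not particular to this list. The median of 7 measured hepatocyte markers lay between -0.39 and -0.22 on the swapped arrays and between -0.03 and 0.16 on the unswapped ones. Turned by the dyes, 3 of 15 were below 0 in untreated and 5 in treated mutants, where 51.4% and 53.2% of all genes were. As deposited, 2 had an unadjusted p under 0.05 below 0 in each group, where 4.65% and 3.37% of all genes did. Cyp7a1, the rate-limiting P450 of bile acid synthesis, was below 0 on all 8 arrays, at -1.12 ± 0.37 (SE, adjusted p = 0.575) in untreated and -2.01 ± 0.37 (adjusted p = 0.375) in treated mutants. Cyp8b1, the sterol 12-hydroxylase, stood at -1.89 ± 0.39 in untreated mutants (unadjusted p = 0.000887, adjusted p = 0.365) and the difference between treated and untreated mutants was 1.58 ± 0.56 (adjusted p = 0.974). Cyp3a11, a drug-metabolising P450, read 0.98 and 1.20 on the unswapped and -0.91 and -1.33 on the swapped untreated arrays. Its treated mean was -1.26 ± 0.20 (adjusted p = 0.363) and became 1.34 when turned. Of these P450 values, that of Cyp7a1 in treated mutants kept its sign when the swapped arrays were turned, at -0.45.

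Over the 8 arrays, the genes whose deposited values ran most like those of Alas2 were Nprl3 (Pearson r = 0.97), Prss54 (0.96), Tor3a (0.95), Tmem176a (0.94) and Ankrd36 (0.94). For Alas1 they were Cntn6 (0.94), Hormad1 (0.93), 2700049A03Rik (0.93), Gm10413 (0.93) and Serpinb3a (0.92). These are the highest of all genes over 8 points that share wild type RNA in pairs, so they are a description without a test.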

How the data were processed

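The data were 8 two-colour arrays of mouse liver RNA, 4 per group. The authors deposited centred log ratios, read here as log2, for 45220 features, and limma is named per the submitters' processing notes. The sources used here do not give the background correction, the normalization, or the base and direction of the logs. Without intensities, dim features were kept. A GEO platform table gave 33653 features a single symbol, 56 several and 11511 none. Entrez numbers of 33517 were found in RefSeq genes of GRCm38.p6, with 0 symbols changed. Features of a gene were averaged.

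All genes were fitted with limma 3.58.1 in R 4.3.3 (lmFit and eBayes, 1 coefficient per group and 1 for the dye, 5 residual degrees of freedom), with Benjamini-Hochberg adjustment over all genes and a threshold of 0.05. The fit was tried on simulated data with independent arrays in 1 direction. That trial could not test the shared wild type RNA or the reading of the swapped arrays. Per the series' design text the replicates are biological and independent, and 4 arrays per group limit the precision. Same-numbered arrays share a wild type number in the labels, and their deviations from the group means correlated at 0.32 to 0.51. The numbers were therefore taken to pair the arrays, but only in the settings with a replicate block. The main fit held no block, so its standard errors and p-values treat the arrays as independent. The consensus correlation of the block was 0.13.

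The members, lists, tests and readings were chosen with earlier results of these data known. Named are all members, those of the 3 genes of smallest p per list and comparison that had an unadjusted p under 0.05, globin genes, Slc4a1, and the 5 genes most correlated with Alas1 and Alas2. Klf1, Hmox1 and the genes passing for both groups averaged were added after their values were seen. Promoters of 7 members were found in the RefSeq table (250 bases before each start, GRCm38.p6), and 7 motifs were searched on both strands. The loop of the iron-responsive element was planned but not searched.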

Additional observations from a re-analysis of the deposited data

How the results depend on the processing

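No heme synthesis gene passed in any setting, so what moved was direction. With the swapped arrays turned by the dyes, and equally with the replicate block added (a setting chosen after seeing the data), signs turned as follows. In untreated mutants Alas1 stood at 0.12, Alas2 at 0.33, Alad at -0.092, Urod at -0.33, Fech at 0.14, Cyp8b1 at 0.30 and Cyp7a1 at 0.14. In treated mutants Alas2 stood at -0.0062, Uros at 0.14, Urod at -0.24, Fech at 0.22, Glrx5 at -0.29, Cd163 at -0.63, Blvrb at -0.13, Nr1i2 at -0.28, Ppargc1a at 0.15, Nr1d1 at 0.17 and Cyp3a11 at 1.34. Between treated and untreated mutants Alas1 stood at -0.57, Alas2 at -0.33, Alad at 0.30, Fech at 0.080, Cd163 at -0.17, Blvrb at -0.14, Cyp3a11 at 0.24 and Cyp8b1 at -0.68. Over both groups Uros stood at 0.16, Urod at -0.28 and Fech at 0.18. Klf1 in untreated mutants, turned without the block, stood at 0.12. The cause was not tested.

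With 1 array left out at a time, these values crossed 0. In untreated mutants the range was -0.48 to 0.076 for Alas2, -0.093 to 0.15 for Alad, -0.018 to 0.097 for Uros and -0.14 to 0.081 for Cpox. In treated mutants the range was -0.026 to 0.13 for Alad and -0.19 to 0.042 for Cpox. Between treated and untreated mutants the range was -0.0003 to 0.45 for Alas1, -0.11 to 0.14 for Alad, -0.0032 to 0.23 for Urod, -0.20 to 0.084 for Cpox and -0.16 to 0.015 for Fech. Over both groups the range was -0.067 to 0.33 for Alas2, -0.024 to 0.11 for Alad and -0.041 to 0.022 for Uros.

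Leaving out both arrays of a number was also chosen after seeing the data. Without number 1, Alas2 stood at -0.0085 in treated mutants and -0.28 over both groups. Without number 2, Alas2 stood at 0.053 and Cpox at 0.0075 in untreated mutants, Alad at -0.017 and Cpox at 0.052 in treated ones, and Cpox at 0.044 between them and 0.030 over both groups. Without number 3, untreated values were 0.13 for Alas2, -0.083 for Alad and -0.032 for Uros, and Alad stood at 0.18 between the groups. Without number 4, Cpox stood at 0.081 in untreated and Uros at 0.0035 in treated mutants, Alas1 at -0.10 between the groups, and Alas2 at -0.19 and Uros at 0.056 over both. By single features, Fech stood at 0.0028 and Alad at 0.017 between the groups, and Alad at -0.025 in treated mutants.

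The count of all genes called was 0 in untreated mutants and became 9 when turned, 8 when turned with the block, 1 without number 2 and 15 without number 4. In treated mutants it was 0 and became 10 when turned, 11 with the block too, 6 without number 2, 1 without number 3 and 8 without number 4, and ran from 0 to 3 with 1 array left out. Over both groups it was 2 and became 309 when turned, 231 with the block too, 0 with the wild type number as a random replicate block, 16 with arrays scaled to 1 spread, 17 after quantile normalization, 5 with robust eBayes, 21 by single features, 0, 17, 1 and 67 without numbers 1, 2, 3 and 4, and 0 to 4 with 1 array left out. The block changed no call of a heme synthesis gene. Cyp3a11 in treated mutants passed without treated replicate 2 (-1.60) and without number 2 (-1.61). A filter on dim features was not possible without intensities, and 4 arrays per group limit what could be detected.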
